A study of Homo sapiens with 8 samples.

Results

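Promoter windows of 9 genes of the PARP and single-strand break repair pathway were examined in OGAP-seq data from RPE1 cells. The genes were PARP1, PARP2, PARP3, XRCC1, TDP1, TDP2, APTX, LIG3 and POLB. They were found by their Ensembl identifiers in a count table of 19957 promoter windows, and each position was checked against the RefSeq gene start. RPE1 is an hTERT-immortalised epithelial line of human retinal pigment origin, and OGAP-seq enriches DNA fragments that carry oxidative base damage before sequencing. There were 4 groups of 2 libraries each. KD OGAP and KD input came from cells after doxycycline, which the labels equate with knockdown of NuMA (TDIF), while WT OGAP and WT input came from cells without doxycycline. Input is DNA that was not pulled down. Any difference of KD from WT is thus one of doxycycline and depletion together, and the effects of these cannot be told apart. The labels do not name separate cultures for the libraries within a group, so p-values measure only the spread between libraries, which may be technical in origin. These data count genomic DNA, and therefore neither the depletion of NuMA nor the cell type could be checked from these windows.

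Single-strand breaks arise from oxidised sugars and as intermediates when damaged bases are cut out. PARP1 and PARP2 bind such breaks and make poly(ADP-ribose), PARP3 adds single ADP-ribose units, and the polymer recruits XRCC1, the scaffold that holds the repair enzymes. Damaged ends are cleaned by TDP1, which removes trapped topoisomerase 1 from 3′ ends, by TDP2, which removes topoisomerase 2 from 5′ ends, and by APTX, which removes AMP left by abortive ligation. POLB fills the gap, and LIG3 seals the nick in complex with XRCC1. NuMA, known mainly as a spindle-pole protein, has been described as a partner of this pathway at oxidative breaks. The counts report reads from the DNA of a window, not the activity of a gene's product.

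The promoters of PARP1 and PARP2 are shown because these were the 2 genes whose windows passed the test for more reads in OGAP than in input in WT. Each sequence is the 250 bases before the gene start (RefSeq, GRCh38.p14), on the gene's own strand. Runs of at least 3 G or of at least 3 C, on the printed strand, are in capitals, because guanine is the base most readily oxidised. PARP1 is at chr1:226408094-226408343 on the minus strand, and PARP2 at chr14:20343385-20343634 on the plus strand.
PARP1: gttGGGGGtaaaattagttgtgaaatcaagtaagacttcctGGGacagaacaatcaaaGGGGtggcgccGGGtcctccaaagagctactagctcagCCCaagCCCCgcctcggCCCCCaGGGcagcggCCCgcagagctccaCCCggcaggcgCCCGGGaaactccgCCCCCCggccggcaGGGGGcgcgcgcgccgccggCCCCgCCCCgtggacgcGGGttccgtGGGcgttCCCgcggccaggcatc
PARP2: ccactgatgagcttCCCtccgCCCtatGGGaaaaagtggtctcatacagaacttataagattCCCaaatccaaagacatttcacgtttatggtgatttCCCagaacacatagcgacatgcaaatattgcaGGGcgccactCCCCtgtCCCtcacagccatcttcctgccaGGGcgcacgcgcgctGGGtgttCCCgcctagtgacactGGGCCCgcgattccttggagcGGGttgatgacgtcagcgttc

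The PARP1 stretch held 70.4% G+C and 19 such runs, of which the longest was 6 bases. Among 15841 promoters of protein-coding genes, of the same length, its G+C stood at percentile 75.6 and its number of runs at percentile 84.9. The PARP2 stretch had a different make-up, with 54.4% G+C (percentile 27.9) and 14 runs (percentile 59.5), the longest of 4 bases. The median promoter had 62.4% G+C and 12 runs, and 99.6% of promoters held at least 1 run. The motif GGGCGG, searched on both strands, occurred 2 times before PARP1 and 1 time before PARP2, against a share of 56.1% of all promoters with at least 1. CCAAT, searched in the same way, was found in neither stretch and in 34.4% of all promoters. The first bases printed for PARP2 also belong to RPPH1, the gene for the RNA of RNase P (hg38 chromosome 14, 20343071 to 20343411), which lies whole within the PARP2 window.

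Each window spans 2001 bp of hg38 around an annotated gene start. Levels of different genes refer to the same length only where windows overlap no other. The 4 members whose windows overlap no other window are PARP1 (ENSG00000143799, chromosome 1, 226407080 to 226409080, minus strand), PARP2 (ENSG00000129484, chromosome 14, 20342581 to 20344581, plus strand), POLB (ENSG00000070501, chromosome 8, 42337453 to 42339453, plus strand) and XRCC1 (ENSG00000073050, chromosome 19, 43579474 to 43581474, minus strand). The centres of the windows for PARP1, PARP2 and POLB lay 13, 54 and 41 bp from the RefSeq starts. The XRCC1 window was centred 4947 bp upstream of the RefSeq start of XRCC1, within the gene PINLYP (43575509 to 43582098), and no window of the table covered that start. The XRCC1 window instead holds a RefSeq start of PINLYP. Its values therefore describe DNA upstream of XRCC1 that includes a start of another gene, not the XRCC1 start where RefSeq places it.

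The other 5 members have a neighbour that starts close by, and their windows overlap that neighbour's. PARP3 (ENSG00000041880, chromosome 3, 51941344 to 51943344, plus strand) overlaps RRP9 and keeps 402 bp of its own. LIG3 (ENSG00000005156, chromosome 17, 34979493 to 34981493, plus strand) overlaps ENSG00000132141 and keeps 586 bp. TDP1 (ENSG00000042088, chromosome 14, 89953938 to 89955938, plus strand) overlaps EFCAB11 and keeps 160 bp, and APTX (ENSG00000137074, chromosome 9, 33024169 to 33026169, minus strand) overlaps DNAJA1 and keeps 41 bp. TDP2 (ENSG00000111802, chromosome 6, 24666034 to 24668034, minus strand) has exactly the window of ACOT13, so none of its bases are its own.

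Reads followed the unshared length. Summed over the 8 libraries, PARP1 held 415 reads, XRCC1 351, PARP2 283 and POLB 204. PARP3 held 80, LIG3 49, TDP1 22, APTX 5 and TDP2 0. The order of the 5 overlapping members by reads was close to their order by unshared length, with PARP3 above LIG3 as the exception. The table as a whole showed the same: the median was 264 reads in the 16216 windows without overlap, 14 in the 1263 windows with 51 to 250 unshared bp, and 2 in the 595 windows with 1 to 50. All 151 windows without an unshared base held 0 reads. The zeros of TDP2 and the few reads of APTX and TDP1 are thus values of shared windows, and say nothing about damage at these starts. Overlap was also common among genes of related pathways, at 25 of 58 listed windows (43.1%), against 18.75% of all windows.

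**Figure D1:**
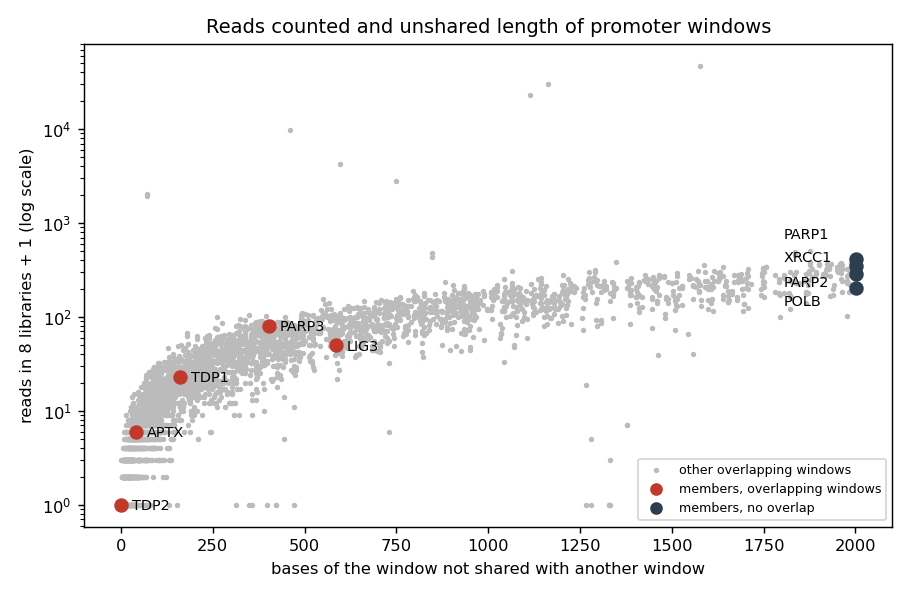
Reads summed over 8 libraries, plus 1, on a log axis against the bases of a window that no other window shares; grey points are other overlapping windows. TDP2 (0 bp), APTX (41 bp), TDP1 (160 bp), PARP3 (402 bp) and LIG3 (586 bp) lie along the grey band, while the 4 members without overlap (dark) lie at 2001 bp with 204 to 415 reads.

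The libraries held 368593 to 771138 promoter reads each, with a median of 17 to 38 reads per window, least in WT OGAP. The pair of libraries in each group was further apart than counting noise alone would give (chi-square over its degrees of freedom 1.90 to 2.14). After TMM scaling the median tested window held 52.3 to 55.3 reads per 1e6 scaled reads (CPM) in each library. Of the 9 members, 6 passed the count filter, and TDP1, TDP2 and APTX did not. PARP3 and LIG3, which passed, had at most 22 reads in any library, so only large differences could have been detected for them. Tests were edgeR's quasi-likelihood tests over 17130 windows, with a Benjamini-Hochberg adjusted p under 0.05 as the threshold, and log2 changes are given with their SE. The spread of a window was drawn strongly towards that of all windows, so an SE says little of how closely that window's own libraries agreed.

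PARP1 and PARP2 passed the test for more reads in OGAP than in input, in WT and in the mean of KD and WT. No other member passed in either direction. In WT cells, 2 of the 6 tested members rose in OGAP over input, against 9.25% of all tested windows that were called higher, 4.45% called lower and 13.7% called in either direction. With the KD and WT contrasts averaged, the same 2 members rose, against 11.5% called higher, 6.22% lower and 17.7% in either direction. In KD cells no member passed, where 0.736% of windows did; edgeR gave 2 members (PARP1 and PARP2) at an unadjusted p under 0.05, as it did 12.6% of all tested windows, and DESeq2 called none. The median log2 change of OGAP over input for the 6 tested members was 0.38 in KD (0.03 for all tested windows) and 0.46 in WT (-0.02 for all).

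PARP1, the main maker of poly(ADP-ribose) at breaks, had the highest mean OGAP level of the 4 windows without overlap in both states. It held 52 and 57 reads in KD OGAP, against 32 and 43 in KD input. The WT OGAP libraries held 63 and 69 PARP1 reads and the WT inputs 47 and 52, although the WT OGAP libraries were the smallest. Thus more reads fell in the window in OGAP than in input even before scaling. Scaled, this was 92.8 and 127 CPM in KD OGAP, against 45.7 and 64.9 CPM in KD input. WT OGAP libraries had 177 and 180 CPM, against 63.2 and 66.9 CPM in WT input. All 4 OGAP libraries lay above all 4 inputs, as in 10.2% of tested windows, while in 6.89% all 4 OGAP libraries lay below. OGAP over input was 2.75-fold in WT (log2 1.46 ± 0.29, adjusted p = 0.000159, edgeR) and 2.33-fold in the mean of KD and WT (log2 1.22 ± 0.21, adjusted p = 7.88e-06). In KD the log2 change was 0.98 ± 0.30 (95% interval 0.38 to 1.59), with an adjusted p of 0.102.

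PARP2, which shares with PARP1 the task of modifying proteins at breaks, had 52 and 42 reads in KD OGAP, against 34 and 37 in KD input. WT OGAP libraries had 39 and 28 reads, and WT input libraries 25 and 26. As for PARP1, OGAP exceeded input in unscaled reads in both states. In CPM the KD OGAP libraries stood at 92.8 and 93.9, against 48.5 and 55.9 in KD input. The WT OGAP libraries stood at 110 and 73.2 CPM, against 33.6 and 33.5 CPM in WT input. The median tested window held 53.8 and 54.0 CPM in these WT inputs, so the WT change of PARP2 is taken over a low input. Here too all 4 OGAP libraries lay above all 4 inputs, but the WT OGAP pair spread widely while the WT inputs were nearly equal. OGAP over input was 2.71-fold in WT (log2 1.44 ± 0.36, adjusted p = 0.00339, edgeR) and 2.20-fold in the mean of KD and WT (log2 1.14 ± 0.25, adjusted p = 0.000418). In KD it was 0.84 ± 0.33 on the log2 scale (adjusted p = 0.236). Without WT OGAP replicate 1 the WT value was 1.11 with an adjusted p of 0.100, so the PARP2 call in WT rested on that library; with both states averaged, PARP2 was called without any 1 of the 8 libraries, at 0.97 to 1.27.

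**Figure D2:**
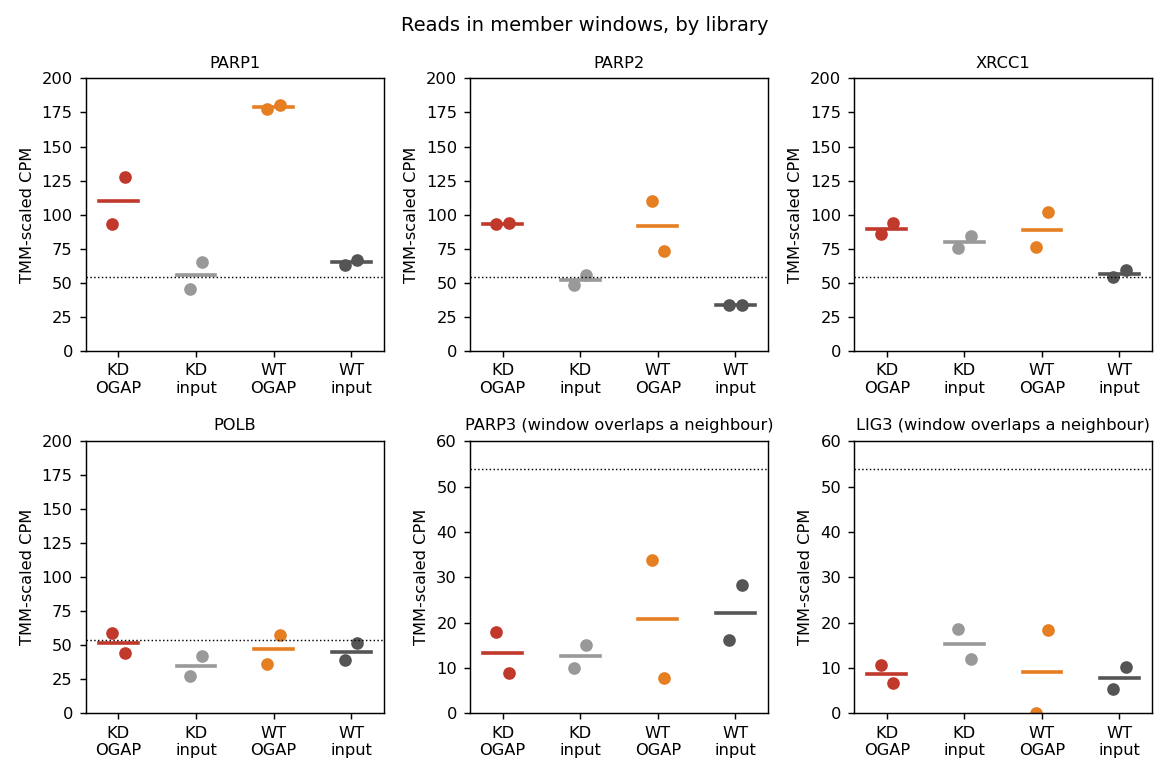
TMM-scaled CPM (y axis, with a shorter scale for PARP3 and LIG3) in each library (dots), with group means (bars); the dotted line is the median over libraries of the median tested window. PARP1 reaches 177 and 180 CPM in WT OGAP, and for PARP1 and PARP2 every OGAP dot lies above every input dot.

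PARP3, the mono-ADP-ribosyltransferase of the family, had few reads and no consistent order. It held 10 and 4 reads in KD OGAP, against 7 and 10 in KD input, with WT OGAP at 12 and 3 and WT input at 12 and 22. Its log2 change of OGAP over input was 0.13 ± 0.73 in KD and -0.12 ± 0.67 in WT. The 95% interval in WT ran from -1.44 to 1.20 and holds changes of more than 1 on the log2 scale in either direction.

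The XRCC1 window, upstream of the scaffold's gene, had 85.7 and 93.9 CPM in KD OGAP, against 75.7 and 84.6 CPM in KD input. In WT OGAP it had 76.0 and 102 CPM, against 53.8 and 59.2 CPM in WT input. OGAP exceeded input in both states, by a small margin in KD. The log2 change was 0.16 ± 0.30 in KD (adjusted p = 0.880) and 0.66 ± 0.33 in WT (95% interval 0.01 to 1.31, adjusted p = 0.166, edgeR). The mean of KD and WT was 0.41 ± 0.22 with an adjusted p of 0.197.

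POLB, the gap-filling polymerase, stood at 58.9 and 44.7 CPM in KD OGAP, against 27.1 and 42.3 CPM in KD input. WT OGAP gave 36.6 and 57.5 CPM, against 39.0 and 51.5 CPM in WT input. The WT groups overlapped fully. In KD the mean was 51.8 CPM in OGAP and 34.7 CPM in input, and this difference did not pass the test. The log2 change of OGAP over input was 0.59 ± 0.41 in KD (95% interval -0.22 to 1.41, adjusted p = 0.583) and 0.06 ± 0.42 in WT (-0.77 to 0.89, adjusted p = 0.940). The WT interval does not reach the 1.46 of PARP1 or the 1.44 of PARP2. It does overlap their own intervals, narrowly for PARP1 (0.888 to 2.03) and more for PARP2 (0.72 to 2.16). The differences between genes were not tested.

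LIG3, the ligase that closes the nick, held 6 and 3 reads in KD OGAP, against 13 and 8 in KD input. The WT OGAP libraries gave 0 and 7, against 4 and 8 for WT input. With a zero in WT OGAP replicate 1, its fitted changes rested on single libraries: OGAP over input in WT was 0.25 ± 0.99 on the log2 scale, and -5.29 without WT OGAP replicate 2, a value against 0 reads that depends on the prior count and is no bound. The end-processing genes could not be compared. TDP1 had 2 and 4 reads in KD OGAP, against 3 and 3 in KD input, and its WT OGAP libraries had 1 and 2, against 3 and 4 for WT input. APTX had no read in KD OGAP, against 1 and 0 for KD input, while its WT OGAP libraries had 2 and 0, against 1 and 1 for WT input.

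The 4 members without overlap can be ordered by their mean CPM (± SD, n = 2). In KD OGAP the means were 110 ± 24.5 for PARP1, 93.3 ± 0.76 for PARP2, 89.8 ± 5.8 for XRCC1 and 51.8 ± 10 for POLB, and the libraries of the first 3 genes overlapped. KD input gave XRCC1 (80.1 ± 6.3) the highest mean, then PARP1 (55.3 ± 13.6) and PARP2 (52.2 ± 5.2), whose libraries overlapped, and POLB (34.7 ± 10.7). WT OGAP put PARP1 (179 ± 2.3) first, then PARP2 (91.5 ± 25.8) and XRCC1 (89.0 ± 18.4), which overlapped, then POLB (47.1 ± 14.8). In WT input the order was PARP1 (65.1 ± 2.6), XRCC1 (56.5 ± 3.8), POLB (45.2 ± 8.8) and PARP2 (33.5 ± 0.11), with no overlap between neighbours. PARP2 thus stood beside XRCC1 in WT OGAP and last of the 4 in WT input.

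The study asks how NuMA depletion changes oxidative damage. Of the 6 tested members none passed the test of KD against WT, in OGAP, in input or in the interaction, the difference of OGAP over input between KD and WT. In OGAP 0.035% of all tested windows passed, in input 0.0%, and in the interaction 0.00584%. At an unadjusted p under 0.05, edgeR gave 1 member in OGAP (PARP1), 0 in input and 0 in the interaction, against 10.6%, 4.41% and 8.14% of all tested windows, and DESeq2 called no member. Over all windows the input comparison had 756 at that level with edgeR, and with DESeq2 212 at that level and 0 calls. These comparisons share their libraries with one another and with those of OGAP over input, and are not independent.

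PARP1 had the lowest unadjusted p of the members in OGAP. Both KD OGAP libraries (92.8 and 127 CPM) lay below both WT OGAP libraries (177 and 180 CPM), as they did in 19.9% of tested windows; KD lay above WT in 19.6%. The log2 change was -0.71 ± 0.28 (95% interval -1.27 to -0.15, adjusted p = 0.372, edgeR), and it ran from -0.94 to -0.49 as each library was left out. KD input was close to WT input, with a log2 change of -0.24 ± 0.31 (adjusted p = 0.999). The interaction for PARP1 was -0.47 ± 0.42 with a 95% interval of -1.31 to 0.36, which holds both no change and a drop of more than 1 on the log2 scale.

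For PARP2 and XRCC1 the log2 changes between states lay near 0 in OGAP and above 0 in input. KD against WT in OGAP was 0.03 ± 0.34 for PARP2 and 0.00 ± 0.32 for XRCC1 on the log2 scale. In input it was 0.63 ± 0.36 for PARP2 and 0.50 ± 0.30 for XRCC1, with adjusted p-values of 0.999 for both. Both KD inputs lay above both WT inputs for PARP2, XRCC1 and LIG3, as in 17.2% of tested windows, and below them for PARP3, as in 17.7%. The interaction was -0.60 ± 0.49 for PARP2 (adjusted p = 0.790) and -0.50 ± 0.44 for XRCC1 (adjusted p = 0.815). The smaller OGAP over input of PARP2 in KD thus went with a KD input above the WT input, and not with a lower KD OGAP level. Its KD inputs (48.5 and 55.9 CPM) lay near the median tested window of those libraries (54.3 and 54.4 CPM). Its WT inputs (33.6 and 33.5 CPM) lay below theirs (53.8 and 54.0 CPM). For PARP1 the smaller value in KD went with a lower KD OGAP level. Neither difference passed the test.

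POLB went the other way, with an interaction of 0.53 ± 0.59, 0.14 ± 0.43 in OGAP and -0.39 ± 0.40 in input. PARP3 gave -0.57 ± 0.75 in OGAP and -0.82 ± 0.64 in input, and LIG3 gave -0.08 ± 1.03 and 0.95 ± 0.81. The intervals of these last 2 genes, from -2.05 to 0.91 for PARP3 and from -2.12 to 1.96 for LIG3 in OGAP, leave changes of more than 2-fold in reach. Summed over the 4 windows without overlap, the members held 330 and 360 CPM in KD OGAP, against 197 and 248 CPM in KD input. In WT OGAP the sum was 400 and 413 CPM, against 190 and 211 CPM in WT input. The KD OGAP sums lay below the WT OGAP sums, an order that 19.9% of single tested windows also showed. This order came from PARP1: the other 3 windows summed to 237 and 232 CPM in KD OGAP, against 222 and 233 CPM in WT OGAP.

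**Figure D3:**
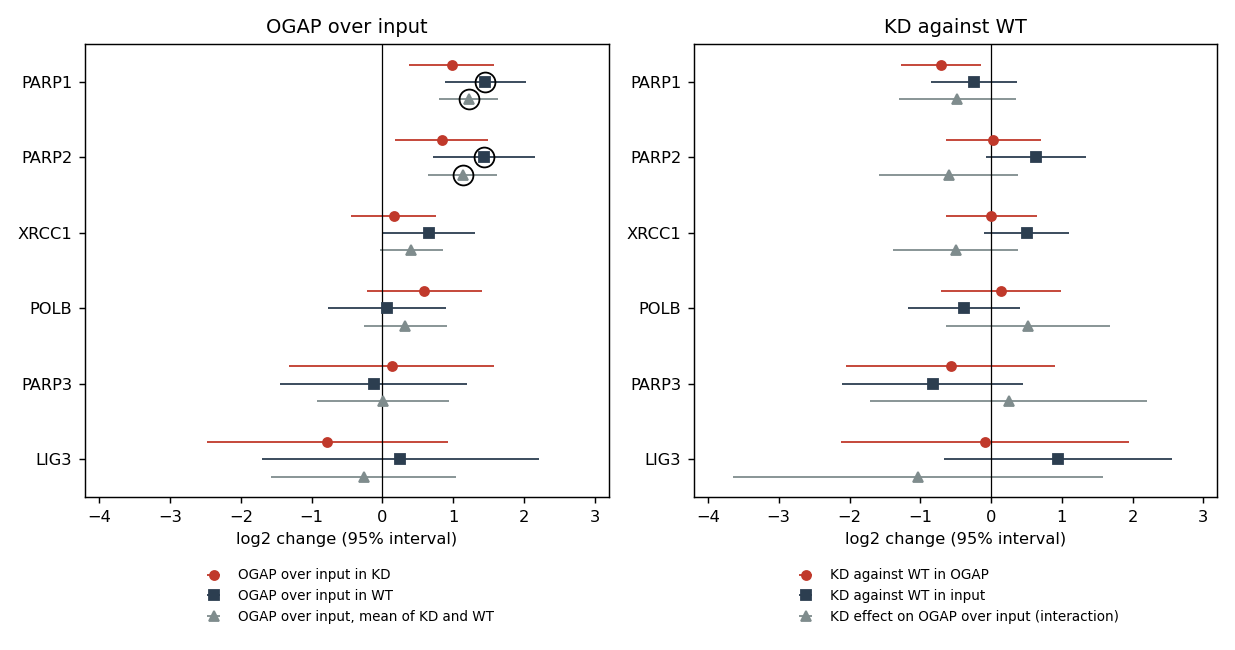
Log2 changes (x axis) with 95% intervals for the 6 tested members: OGAP over input in KD, in WT and in their mean (left), and KD against WT in OGAP, in input and as the interaction (right). Black rings mark adjusted p under 0.05, which only PARP1 and PARP2 reach, in WT (1.46 and 1.44) and in the mean (1.22 and 1.14); no ring stands on the right.

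The median changes around PARP1 and PARP2 differed. Within 500 kb of PARP1, 11 other tested windows had a median log2 change of OGAP over input of -0.21 in KD, with a highest value of 0.30, and of -0.07 in WT, with a range of -0.71 to 0.87. None passed the test, against 0.736% of all tested windows in KD and 13.7% in WT. None reached the PARP1 value in either state, but PARP1 stood at percentile 96.0 of all tested windows in both, so few windows anywhere exceed it. Around PARP2, 27 windows had medians of 0.46 in KD and 0.44 in WT, both above the medians of all windows. In WT 2 of the 27 were called higher, against 9.25% of all tested windows. In that state 1 lay above PARP2, at 2.17, where PARP2 stood at percentile 95.9 of all tested windows. In KD 1 of the 27 was called higher, against 0.736% of all tested windows called in either direction. There 5 lay above PARP2, which stood at percentile 93.5 of all tested windows. The neighbours of XRCC1 had a median of 0.20 in WT (26 windows), and those of POLB -0.24 (11 windows).

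Base composition was compared with OGAP over input as a description over 9959 windows without overlap that had a promoter entry, which share the same libraries and depth. Spearman's rho between G+C of the 250 bases before the start and the log2 change was -0.301 in KD and -0.388 in WT. For the number of G or C runs it was -0.253 in KD and -0.336 in WT. Windows with more G+C in these 250 bases thus tended to have less OGAP signal relative to input. The composition of the whole 2001 bp was not measured. PARP2, at 54.4% G+C, lay on the side of higher values, while PARP1 combined 70.4% G+C with a log2 change at percentile 96.0 of all tested windows in WT. Between KD and WT the rho of G+C was 0.086 in OGAP, -0.223 in input and 0.200 in the interaction. The part of base composition in any member's value was not tested.

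**Figure D4:**
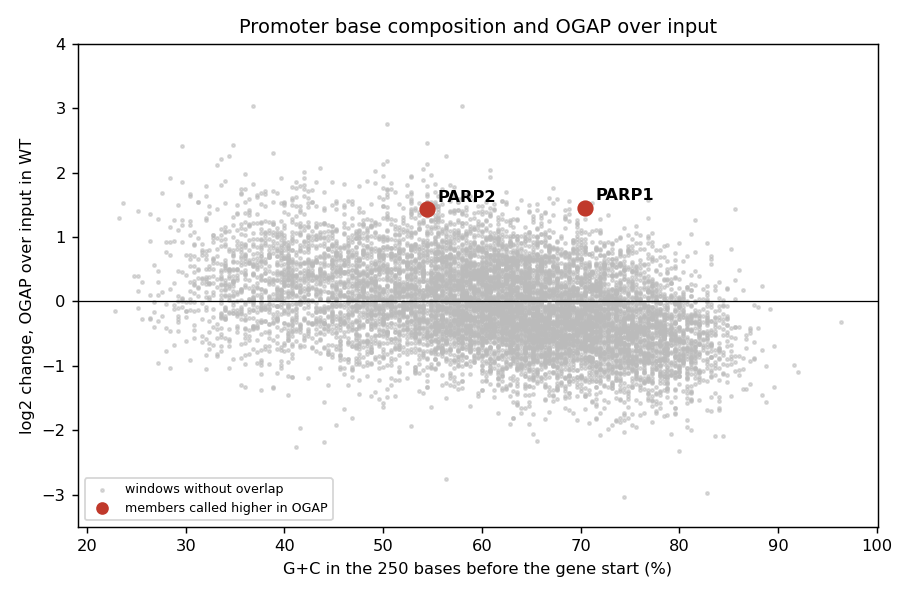
G+C of the 250 bases before the gene start (x axis, %) against the log2 change of OGAP over input in WT (y axis) for 9959 windows without overlap, of which 2 fall outside the drawn range of -3.5 to 4. PARP1 at 70.4% and PARP2 at 54.4% lie at 1.46 and 1.44, in the upper part of a cloud that falls towards high G+C.

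The windows most like each of the called genes over the 8 libraries were named by Pearson's r of log2 CPM, as a description. For PARP1, out of 8123 candidates, these were FCER2 (r = 0.993), PRSS57 (0.993) and CIB3 (0.992). For PARP2, out of 9657, they were ACP3 (0.974), CCK (0.967) and TXNRD1 (0.967). As the best of many candidates over 8 points, such values are high by selection. CIB3, for example, held 35 and 40 reads in KD OGAP, against 21 and 30 in KD input, with WT OGAP at 50 and 53 and WT input at 36 and 31, and its scaled group means fell in the same order as those of PARP1.

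Genes around the pathway were taken from 5 lists with 65 genes: partners in break and base excision repair, ADP-ribose turnover, other PARP family genes, DNA glycosylases and the nucleotide pool, and end joining. Of these, 58 had a named window and 41 were tested; all 17 below the count filter overlapped another window. In KD, 0 of the 41 passed the edgeR test of OGAP over input (0.736% of all windows), with 3 at an unadjusted p under 0.05 (12.6% of all windows) and 0 calls with DESeq2. In WT 4 were higher and 1 lower, against 9.25% and 4.45% of all windows. The mean of KD and WT gave 4 higher and 2 lower, against 11.5% and 6.22% of all windows, so the shares of the 41 were near or below the background. The median log2 change over the 41 was 0.00 in KD and 0.07 in WT, near the 0.03 and -0.02 of all tested windows.

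Among the 7 tested repair partners, TOP1, the topoisomerase whose trapped complexes TDP1 removes, was lower in OGAP. It held 19 and 27 reads in KD OGAP, against 61 and 54 in KD input, with WT OGAP at 17 and 9 and WT input at 70 and 65. After scaling, all 4 OGAP libraries lay below all 4 inputs, as in 6.89% of tested windows. The log2 change was -0.86 ± 0.35 in KD (adjusted p = 0.251), -1.32 ± 0.38 in WT (adjusted p = 0.0125) and -1.09 ± 0.26 in the mean (adjusted p = 0.00138, edgeR). The WT call was lost with DESeq2 (adjusted p = 0.0785), without WT OGAP replicate 2 (-0.89) and without WT input replicate 1 (-1.25), whereas the mean of KD and WT passed under every alternative run. RPA1, the large subunit of the single-strand binding protein, rose in WT (1.32 ± 0.44, adjusted p = 0.0333), and APEX2, an abasic-site nuclease, fell in the mean of KD and WT (-0.82 ± 0.28, adjusted p = 0.0293), both in windows that overlap another. RPA1 lost its WT call with DESeq2 and without any 1 of the 4 WT libraries (0.997 to 1.71); in the mean it was 1.12 ± 0.31 (adjusted p = 0.00663), lost only without KD OGAP replicate 2 (0.96) among the alternatives run. APEX2 lost its call with DESeq2 and without any 1 of 6 libraries, all but KD OGAP replicate 1 and WT OGAP replicate 1 (-0.88 to -0.68).

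In the ADP-ribose list of 10 tested windows, NAMPT, the rate-limiting enzyme of NAD salvage, rose in WT at 1.07 ± 0.38 (adjusted p = 0.0460), and lost that call under 10 of the 15 alternatives, at 0.80 to 1.36, among them without any 1 of the 4 WT libraries and without either KD input. In the mean NAMPT was 0.75 ± 0.27 (adjusted p = 0.0448), lost under 12 of 14 alternatives, at 0.60 to 0.83. HPF1, the factor that directs PARP1 and PARP2 to serine residues, had 31 and 16 reads in KD OGAP, against 32 and 36 in KD input, with WT OGAP at 9 and 3 and WT input at 29 and 35. Its log2 change in WT, -1.35 ± 0.53, missed the threshold (adjusted p = 0.0722). The lowest p-values of this list in KD were those of RNF146 (-0.67 ± 0.39), a ubiquitin ligase that reads poly(ADP-ribose), and NAMPT (0.42 ± 0.39).

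Of the 11 other PARP family windows tested, PARP11, a mono-ADP-ribosyltransferase, rose in WT. It held 31 and 25 reads in KD OGAP, against 17 and 30 in KD input, with WT OGAP at 22 and 19 and WT input at 14 and 16. The log2 change was 0.68 ± 0.42 in KD, 1.49 ± 0.47 in WT (adjusted p = 0.0204) and 1.08 ± 0.31 in the mean (adjusted p = 0.00959, edgeR). In WT the call was lost with DESeq2 and without WT OGAP replicate 1 (1.32) or either WT input (1.42 and 1.55); in the mean it was lost with DESeq2 and without KD input replicate 1 (0.88). PARP9 had 2.15 ± 0.83 in WT (adjusted p = 0.0698) from at most 12 reads in an overlapping window. TNKS, a tankyrase, had -0.71 ± 0.45 in KD.

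Among 9 glycosylase and nucleotide-pool windows, NEIL1, which cuts out oxidised pyrimidines, rose in WT. NEIL1 held 38 and 39 reads in KD OGAP, against 33 and 57 in KD input, with WT OGAP at 46 and 39 and WT input at 29 and 51. The log2 change was 0.21 ± 0.33 in KD, 1.14 ± 0.33 in WT (adjusted p = 0.0122) and 0.68 ± 0.23 in the mean (adjusted p = 0.0318, edgeR). The interaction was -0.92 ± 0.46, with an adjusted p of 0.613. Without WT OGAP replicate 1 (0.95) or WT input replicate 1 (0.80), and with DESeq2, the WT call was lost. The call in the mean was lost with DESeq2 and without KD OGAP replicate 2 or the first library of any of the other 3 groups (0.48 to 0.58). OGG1, the 8-oxoguanine glycosylase, had 0.75 ± 0.30 in WT (adjusted p = 0.0825), while in KD the lowest p-values were those of MPG (0.57 ± 0.56) and UNG (0.27 ± 0.34). None of 4 end-joining windows passed: POLM had 0.55 ± 0.34 and PAXX 0.28 ± 0.31 in KD, and DNTT -0.67 ± 0.41 and POLM 0.41 ± 0.34 in WT. Between KD and WT, none of the 41 listed windows was called by edgeR or DESeq2, with 5 at an unadjusted p under 0.05 in OGAP (10.6% of all tested windows), 1 in input (4.41%) and 1 in the interaction (8.14%).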

How the data were processed

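Promoter windows were counted in 8 OGAP-seq and input libraries of RPE1 cells. The deposited values are counts: whole numbers of reads per promoter window, which the authors made on build hg38 with BWA 0.7.17-r1188, bedtools, featureCounts and MACS2, per the submitters' processing notes. Reads that fall in 2 windows seem to be uncounted, judged from the counts themselves. The deposited coverage signal around genes was not used here.

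Members and gene lists were chosen with earlier results of these data known. Members were found by Ensembl identifier; listed genes were named where a window centre lay within 500 bp of exactly 1 RefSeq protein-coding start on the same strand. Named are all members, genes that overlap their windows, listed genes past the threshold, otherwise the 2 lowest p-values of each list in KD and in WT, and the 3 most similar windows of each called member.

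The deposited counts went unchanged into edgeR 4.0.16 under R 4.3.3 (TMM scaling, quasi-likelihood test, filterByExpr, 4 group means over all 8 libraries, Benjamini-Hochberg adjustment over 17130 windows). The common biological coefficient of variation was 0.178, with 98.4 prior against 4 residual degrees of freedom. SE is the size of the log2 change divided by the root of F, and 95% intervals use the t distribution on it. The alternatives were RLE and upper quartile scaling, no count filter, DESeq2 1.42.0, a replicate block, fits on the compared groups or on windows without overlap, and leaving out each library. The procedure was also run on simulated counts, drawn with the common dispersion for every window. Changes were placed only in windows of at least median abundance, so recovery at low counts, as for PARP3 and LIG3, was not covered.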

Additional observations from a re-analysis of the deposited data

How the results depend on the processing

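The limits are the 2 libraries per group, a median of 17 to 38 reads per window, and windows shared with a neighbour for 5 of the 9 members. Of 504 values of the tested members under an alternative, 467 kept their direction and side of the threshold, 36 changed sign and 1 lost its call. The changes of sign were all in values that had not passed the test. Most of the 504 belong to results that had not passed, and some alternatives leave out a library that the comparison does not use. The 467 is thus no measure of how firm the calls are. The cause of the changes was not tested.

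DESeq2 called 40 windows in OGAP over input in KD, 884 in WT, 1246 in the mean of KD and WT, 0 in KD against WT in OGAP and 0 in the interaction. KD against WT in OGAP gave 12 windows with no count filter and 11 when only the compared groups were used. The interaction gave 3 with RLE size factors, 3 with no count filter and 3 with only windows without overlap. Leaving out each library gave 8 to 160 windows in KD, 890 to 2442 in WT, 1776 to 2798 in the mean, 0 to 11 in KD against WT in OGAP and 0 to 6 in the interaction.

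PARP1 was called in WT under every alternative, at 1.40 to 1.49 (with DESeq2 an adjusted p of 0.00220), and PARP2 under all but 1. The replicate block gave 1.46 for PARP1 (adjusted p = 0.000274) and 1.43 for PARP2 (adjusted p = 0.00467) in WT, and changed no member's call. The labels do not say that equal replicate numbers pair libraries, and the deviations of same-numbered libraries correlated at only -0.040 to 0.024 between groups.

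Changes of sign were these. KD against WT in OGAP for PARP2 became -0.0052 with only windows without overlap, and for XRCC1 -0.0239 with RLE, -0.0217 with DESeq2 and -0.0338 with only windows without overlap. PARP3 in the mean of KD and WT became -0.0101 with RLE, -0.0414 with upper quartile scaling, -0.0134 with no count filter, -0.0124 with DESeq2 and -0.0214 with the replicate block. Over the libraries left out, LIG3 ran from -1.03 to 5.46 in KD against WT in OGAP, -1.97 to 4.51 in the interaction, -5.29 to 1.19 in OGAP over input in WT and -3.04 to 0.20 in the mean; its extremes are against 0 reads in WT OGAP and are no bounds. PARP3 ran from -1.28 to 0.79 in KD against WT in OGAP, -0.46 to 1.62 in the interaction, and in OGAP over input from -0.48 to 0.51 in KD, -1.49 to 0.60 in WT and -0.68 to 0.36 in the mean. In KD against WT in OGAP, PARP2 ran from -0.23 to 0.35, POLB from -0.14 to 0.51 and XRCC1 from -0.19 to 0.24; POLB ran from -0.31 to 0.34 in OGAP over input in WT. Fits on the compared groups alone could not differ for the mean and the interaction, which use all groups, and PARP3 and LIG3 have no value with only windows without overlap.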
